A study of Mus musculus with 15 samples.

Results

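*Pyy*, the gene for peptide YY (ENSMUSG00000017311), was followed as 1 transcript of 55487 genes listed for conjunctival RNA of mice. It was taken as the single row of the count table whose Ensembl identifier carries the symbol *Pyy*, and it was chosen by its counts over the 3 groups, so its own levels are described here without a test. The 15 RNA-Seq libraries came from wild-type BALB/c mice (written BALC/c in the labels), which the study describes as female and 9 to 12 weeks old. All of the mice, controls included, had been sensitized through the ear skin with OVA and MC903 (calcipotriol, a vitamin D analog that inflames skin; 2.5 nmol per day for 7 days). From day 18 to day 24 the eyes received a daily drop for 7 days, of PBS in the PBS group and of OVA (250 μg) in the other groups. The isotype group was OVA challenged and given an isotype control antibody (REGN2390-L1), and the anti–IL-4Rα group was OVA challenged and given an antibody that blocks mouse IL-4Rα (REGN1103), both at 25 mg/kg. No antibody is named for the PBS group, and each group had 5 libraries, with no statement of whether a library held tissue of 1 animal. Below, changes with OVA challenge are those of isotype against PBS, where OVA and the isotype antibody cannot be told apart.

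PYY is a peptide hormone of the neuropeptide Y family, best known from enteroendocrine cells of the lower gut and from pancreatic islets, where it slows gut transit and lowers food intake. It is made as a precursor, cut by prohormone convertases, trimmed by carboxypeptidase E and amidated at its C terminus, and it acts on G protein–coupled Y receptors. The peptidase DPP4 removes its N-terminal dipeptide, which shifts the hormone toward the receptor encoded by *Npy2r*. IL-4Rα is the chain shared by the receptors for IL-4 and IL-13, and it signals through the transcription factor STAT6.

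*Pyy* lies on the minus strand of chromosome 11 at chr11:102106676-102107832 of GRCm38, with 4 annotated transcripts and 631 bases of exon, and no other annotated gene overlaps it. None of the other annotated transcripts held a run of 20 bases in common with any of its 4 transcripts, and the longest run that its 555-base transcript shared with *Ppy* or *Npy*, its nearest relatives, was 10 bases, against reads of 90 bases. The coding sequence, printed because it identifies the short message on which the reads were counted, is 297 bases long and has 98 codons before its stop, with the start and stop codons in capitals. The promoter, from 250 bases before to 50 bases after the upstream of 2 annotated starts (RefSeq, GRCm38.p6, minus strand, chr11:102107783-102108082), is printed because the transcript went from near 0 to a measurable level. Its capitals mark a TATAAG element that begins 27 bases before that start and 83 bases before the downstream one (window chr11:102107727-102108026).

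Pyy coding sequence: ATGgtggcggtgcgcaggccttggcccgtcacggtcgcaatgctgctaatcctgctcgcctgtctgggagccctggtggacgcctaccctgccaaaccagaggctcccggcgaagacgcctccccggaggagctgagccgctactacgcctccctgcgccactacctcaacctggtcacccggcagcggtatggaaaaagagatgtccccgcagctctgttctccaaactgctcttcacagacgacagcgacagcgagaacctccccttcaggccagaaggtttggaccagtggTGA

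Pyy promoter: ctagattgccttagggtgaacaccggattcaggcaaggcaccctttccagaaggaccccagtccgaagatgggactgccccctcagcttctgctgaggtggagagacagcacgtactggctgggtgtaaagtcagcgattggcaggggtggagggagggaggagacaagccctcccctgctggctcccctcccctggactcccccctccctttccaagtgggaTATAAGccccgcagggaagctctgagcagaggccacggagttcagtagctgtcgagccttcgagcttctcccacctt

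The palindrome bound by STAT6, TTC followed after any 4 bases by GAA, was searched on both strands and was in neither window, nor was TTC followed after 3 bases by GAA, the spacing of other STAT factors. Of 32841 promoter windows of the same length, 6.95% held the first, 8.30% the second and 7.44% held TATAAG. These matches describe letters only.

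*Pyy* was near the limit of detection in PBS-challenged eyes, higher after OVA challenge with isotype and at 0 or 1 count with anti–IL-4Rα. In the PBS group, the 5 libraries held 11, 5, 2, 2 and 7 counts of *Pyy* in the order of their replicate numbers. In the isotype group they held 52, 118, 62, 36 and 61 counts. In the anti–IL-4Rα group, replicates 1 to 4 held 0 counts and replicate 5 held 1. All 5 isotype libraries were above all PBS libraries (lowest 36, highest 11 counts), and all PBS libraries were above all anti–IL-4Rα libraries (lowest 2, highest 1 count). Over all genes tested, 6.85% had every isotype library above every PBS library, 4.96% had every anti–IL-4Rα library below every isotype library and 3.12% had every anti–IL-4Rα library below every PBS library; *Pyy* was chosen by this pattern, and nothing is read from these shares.

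Scaled to depth, the level of *Pyy* was 0.0865 ± 0.0512 CPM (counts per 1000000 counts of the library; SD, n = 5) in PBS libraries, 1.01 ± 0.222 CPM in isotype libraries and 0.00472 ± 0.0106 CPM in anti–IL-4Rα libraries. The PBS libraries ran from 0.0354 to 0.151 CPM and the isotype libraries from 0.629 to 1.21 CPM, and the only anti–IL-4Rα library above 0 was at 0.0236 CPM. Within the isotype group, replicate 4 was the low library (0.629 CPM) and the others lay between 1.04 and 1.21 CPM. The level of 3 counts, the upper limit that a count of 0 allows, was 0.0437 to 0.0741 CPM in the anti–IL-4Rα libraries, so a count of 0 in one of them does not set it below a level such as that of PBS replicates 3 and 4 (0.0354 and 0.0382 CPM, each from 2 counts). Such limits and the intervals below cover counting error only.

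**Figure D1:**
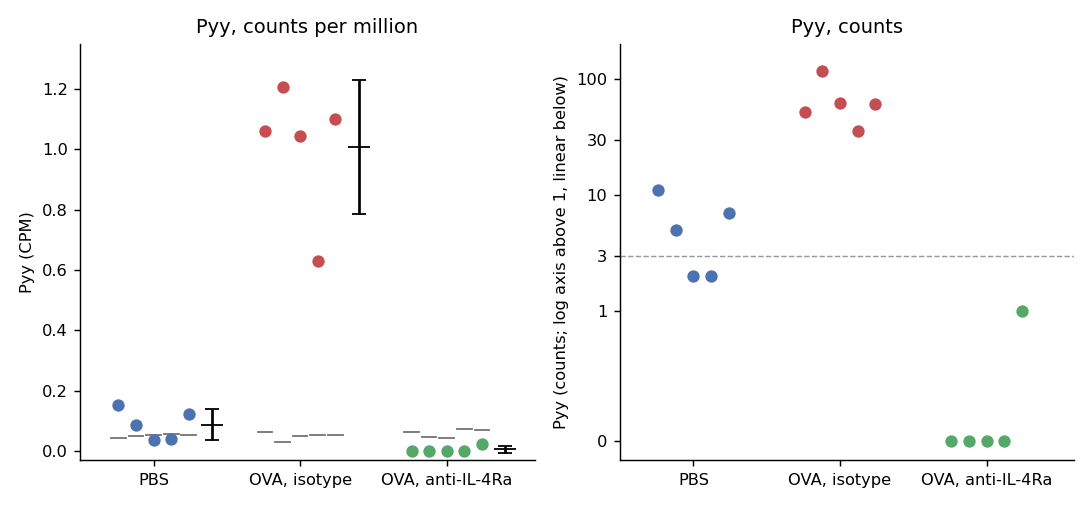
Pyy in every library as CPM (left, linear axis) and as counts (right, log axis above 1 and linear below). Points are libraries in the order of their replicate numbers, black bars the mean and SD of 5 libraries, and gray marks and the dashed line the level of 3 counts; the 5 isotype libraries lie at 36 to 118 counts, above the PBS libraries at 2 to 11 counts and the anti–IL-4Rα libraries at 0 or 1.

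Over pooled libraries the isotype group had 329 *Pyy* counts and the PBS group 27, a ratio of 11.4 after scaling (95% exact counting interval 7.67 to 17.5). The anti–IL-4Rα group had 1 count among 291047341 counts in all, so that the isotype group was 273 times higher (48.7 to 10826) and the PBS group 24 times higher (3.96 to 984). In the model fitted across 19006 genes (edgeR, at least 10 counts in at least 5 libraries), the log2 fold change of *Pyy* was 3.47 (SE 0.37) for isotype against PBS, −7.41 (SE 0.57) for anti–IL-4Rα against isotype and −3.94 (SE 0.75) for anti–IL-4Rα against PBS. By fold, it ranked 52 among the rises of the first comparison and 3 among the falls of each of the others. *Pyy* passed the filter through the 5 isotype libraries and PBS replicate 1, so a gene kept in this way had to differ between groups. The fitted falls depend on the prior count and on the single count in anti–IL-4Rα replicate 5, are no bounds, and without that library were −8.92 against isotype and −5.45 against PBS.

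The transcript stayed rare even where it was highest. Per length it reached 1.60 ± 0.351 FPKM (CPM divided by the length of exon in kilobases; SD, n = 5) in the isotype group, above 29.6% to 39.3% of the genes tested in those libraries, against 3.80% to 14.7% in the PBS libraries. In bulk tissue, fewer cells of a type and less RNA per cell cannot be told apart, and no cell source of *Pyy* was measured.

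Library totals ran from 48622246 to 87745024 counts, and the conjunctival keratins *Krt4* and *Krt13* and the goblet cell mucin gene *Muc5ac* were present in every library (at least 516, 554 and 994 CPM). The share of counts in 12 lacrimal gland genes ranged from 0.0145% to 5.08% in the PBS group, 0.0185% to 3.33% in the isotype group and 0.140% to 12.4% in the anti–IL-4Rα group. Lacrimal RNA therefore varied with and within the groups. Anti–IL-4Rα replicate 3, with 0.140% lacrimal counts, held 0 counts of *Pyy*, and the others of its group, with 5.50% to 12.4%, held 0 or 1. Isotype replicates 1 and 4, with 3.33% and 2.77%, held 52 and 36, and isotype replicate 2, with 0.0185%, held 118. The part of lacrimal RNA in the level of *Pyy* was not tested. A lacrimal score, the mean log2 CPM of only 4 of the 12 lacrimal genes, was used as a covariate. With it, the *Pyy* fold changes were 3.53 for isotype against PBS, −7.29 for anti–IL-4Rα against isotype and −3.76 for anti–IL-4Rα against PBS. Isotype replicate 2 was rich in hair keratins (*Krt71* at 2940 CPM, where the rest of its group had 222 to 444 CPM), and without it the 3 fold changes were 3.39, −7.31 and −3.92.

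The other genes of the PYY system were called about as often as genes at large. The lists held 18 genes besides *Pyy* (ligands, receptors, processing enzymes and PYY-cleaving peptidases), of which 12 were tested. For isotype against PBS, 0 were called higher and 1 lower at an adjusted p under 0.05 (edgeR quasi-likelihood test with Benjamini-Hochberg adjustment over all genes tested), where 17% of all genes were called (9.53% higher and 7.49% lower). For anti–IL-4Rα against isotype, 2 were called higher and 0 lower, against 14.9% of all genes (6.73% higher and 8.13% lower). For anti–IL-4Rα against PBS, 0 were called (2 at an unadjusted p under 0.05, and 1 by DESeq2), against 3.72% of all genes (2.28% higher and 1.44% lower). The median log2 fold change of the 12 genes was −0.12, 0.14 and −0.11, and that of all genes tested −0.012, 0.0091 and −0.0043.

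Among the ligands, *Ppy*, which encodes pancreatic polypeptide and lies next to *Pyy* on chromosome 11, had 1 count in 1 anti–IL-4Rα library and 0 in the other libraries. *Npy*, the neuropeptide of sympathetic nerves, was at 1.14 ± 0.210, 1.81 ± 1.94 and 0.863 ± 0.435 CPM in the PBS, isotype and anti–IL-4Rα groups (SD, n = 5). Its isotype libraries were at 1.08, 5.27, 0.707, 1.01 and 0.993 CPM, so the mean of the group rested on replicate 2. Its log2 fold changes of 0.68 (SE 0.50, adjusted p = 0.366) for isotype against PBS and −1.08 (SE 0.51, adjusted p = 0.155) for anti–IL-4Rα against isotype did not pass the edgeR test, and the groups overlapped.

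Transcripts for Y receptors were present but did not pass the test in any comparison. *Npy1r*, the main receptor for NPY on vessels and nerves, was at 5.25 ± 1.73, 4.35 ± 1.28 and 4.89 ± 1.49 CPM in the PBS, isotype and anti–IL-4Rα groups. *Npy4r*, which prefers pancreatic polypeptide, was at 2.32 ± 0.544, 2.03 ± 0.455 and 2.18 ± 0.379 CPM. Adjusted p ran from 0.505 to 0.862 over both genes and the 3 comparisons (edgeR). *Npy2r*, whose product prefers the DPP4-cleaved form of PYY, had 4 to 15 counts per library and was not tested. *Npy5r* had at most 2 counts and *Npy6r* at most 1 count in any library.

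Of the enzymes that make the active peptide, all 6 genes listed were tested. *Cpe*, the carboxypeptidase, was abundant in all groups (392 ± 60.01, 325 ± 93.3 and 352 ± 33.6 CPM). The convertase genes *Pcsk1* and *Pcsk2* were low, with group means of 0.787 to 1.09 CPM and 0.499 to 0.787 CPM, and did not pass the test. *Pam*, which encodes the amidating enzyme, was at 111 ± 14.7 CPM with PBS and 105 ± 14.5 CPM with isotype, and it was higher with anti–IL-4Rα (141 ± 20.3 CPM; log2 fold change 0.42 against isotype, SE 0.12, adjusted p = 0.0359 by edgeR). The inhibitor gene *Pcsk1n* and the chaperone gene *Scg5*, whose products act on the convertases, had 4 to 24 and 4 to 29 counts per library and did not pass.

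Among the peptidases, *Dpp4* was at 28.3 ± 5.04 CPM with PBS, 28.1 ± 3.99 CPM with isotype and 38.2 ± 5.39 CPM with anti–IL-4Rα (log2 fold change 0.44 against isotype, SE 0.13, adjusted p = 0.0388 by edgeR). Its anti–IL-4Rα libraries were at 31.8 to 43.6 CPM and overlapped the isotype libraries, at 25 to 34.7 CPM. *Xpnpep2*, an aminopeptidase that cleaves before proline, fell from 7.94 ± 0.543 to 5.67 ± 0.687 CPM with OVA challenge (log2 fold change −0.49, SE 0.11, adjusted p = 0.0101 by edgeR), with no overlap between the groups. *Mme*, the gene for neprilysin, did not pass in any comparison, *Mep1a* had at most 3 counts in a library and *Mep1b* had 0 counts throughout. Under edgeR the call for *Pam* was lost in 7 of 15 fits that left out 1 library (isotype replicates 2, 3 and 5, anti–IL-4Rα replicates 1, 2, 4 and 5; adjusted p up to 0.0853) and that for *Dpp4* in 6 (isotype replicates 1, 2 and 5, anti–IL-4Rα replicates 1, 4 and 5; up to 0.0938), and both were lost with the lacrimal score as a covariate (0.0685 and 0.179).

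**Figure D2:**
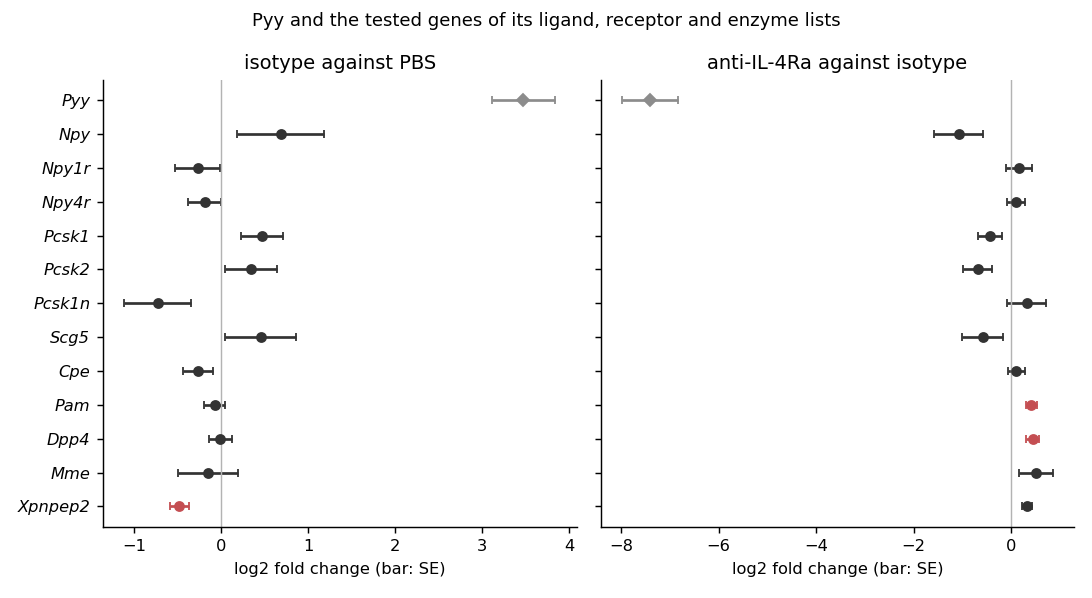
Log2 fold changes (points, with the SE as bars) of Pyy and the 12 other tested genes of its ligand, receptor and enzyme lists, for isotype against PBS (left) and anti–IL-4Rα against isotype (right). Red marks an adjusted p under 0.05 and the gray diamond is Pyy, shown without a test; Xpnpep2 is called in the left panel and Pam and Dpp4 in the right, and Pyy lies at 3.47 and −7.41.

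Of the hormone and granule genes that enteroendocrine cells express, *Chga* and *Nts* were called higher with OVA challenge and lower with anti–IL-4Rα. *Chga*, the gene for the granule protein chromogranin A, was at 1.36, 0.916, 0.991, 1.01 and 0.791 CPM in the PBS libraries, 1.49, 2.01, 2.98, 1.68 and 1.52 CPM in the isotype libraries and 0.873, 0.934, 0.758, 1.09 and 1.04 CPM in the anti–IL-4Rα libraries. All isotype libraries were above all others. It rose with OVA challenge (log2 fold change 0.93, SE 0.20, adjusted p = 0.00935) and fell with anti–IL-4Rα (−1.05, SE 0.20, adjusted p = 0.00867), by edgeR, and against PBS the anti–IL-4Rα group did not pass (adjusted p = 0.783). *Nts*, which encodes neurotensin, a gut hormone also made by L cells, had 8 to 55 counts per library. It was at 0.234 ± 0.0597, 0.413 ± 0.106 and 0.203 ± 0.0263 CPM in the PBS, isotype and anti–IL-4Rα groups, with log2 fold changes of 0.83 (SE 0.21, adjusted p = 0.0186) for isotype against PBS and −1.04 (SE 0.22, adjusted p = 0.0119) for anti–IL-4Rα against isotype (edgeR). Its isotype libraries overlapped the PBS libraries through replicate 1 (0.266 CPM) and did not overlap the anti–IL-4Rα libraries. The first of these calls was lost without isotype replicate 2 (adjusted p = 0.0520).

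The remaining hormone genes were near 0 or did not change detectably. Of 12 gut and islet hormone genes, 3 were tested (*Nts*, *Cck* and *Tac1*), and 1 was called higher with OVA challenge (9.53% of all genes were) and 1 lower with anti–IL-4Rα (8.13%), both *Nts*. *Sct*, the secretin gene, was not tested; it had 260 counts in isotype replicate 2 and 4 to 14 counts in the other libraries. *Gcg*, the glucagon gene that L cells express with *Pyy*, had 0 to 9 counts, and *Insl5*, another L-cell hormone gene, 0 to 3. *Gip* and *Ins1* had 0 counts in all libraries. *Cck* was at 4.49 ± 1.17, 3 ± 1.26 and 4.61 ± 0.911 CPM in the PBS, isotype and anti–IL-4Rα groups and did not pass (edgeR adjusted p = 0.156 and 0.133).

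Of 14 granule and endocrine transcription factor genes, 6 were tested, with 2 called higher and 1 lower for isotype against PBS (9.53% and 7.49% of all genes) and 1 lower for anti–IL-4Rα against isotype (8.13% of all genes). *Insm1*, an endocrine transcription factor gene, rose from 0.0641 ± 0.0367 to 0.181 ± 0.0719 CPM with OVA challenge (log2 fold change 1.40, SE 0.40, adjusted p = 0.0284 by edgeR), and this call was lost without PBS replicate 2, 3, 4 or 5 (adjusted p 0.0543 to 0.0686). *Isl1*, which encodes another such factor, fell from 2.81 ± 0.627 to 1.55 ± 0.205 CPM (−0.86, SE 0.17, adjusted p = 0.00688). The factors that specify gut endocrine cells were at or near 0: *Neurog3* had at most 3 counts, *Neurod1* at most 2, *Pax4* at most 1 and *Rfx6* at most 2 in any library. Within these lists, then, some members were near 0 in all groups. Others were called higher (*Chga*, *Nts*, *Insm1*) or lower (*Isl1*) with OVA challenge, and the cells that hold *Pyy* were not tested.

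**Figure D3:**
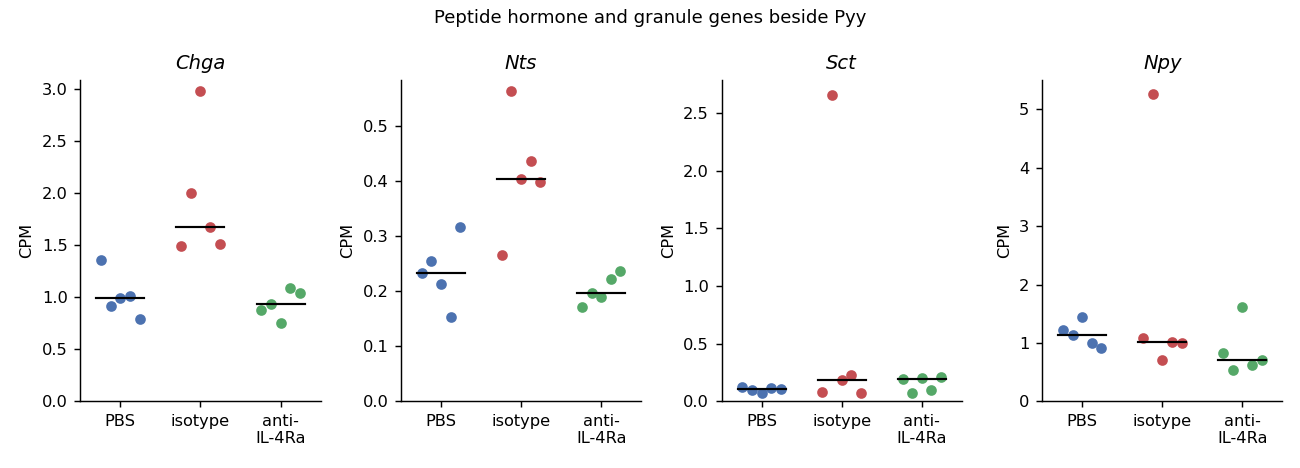
CPM of Chga, Nts, Sct and Npy in every library (points, in the order of the replicate numbers) with the median of 5 libraries (lines). Chga is higher in all isotype libraries than in all others, and the highest isotype value of Sct (2.66 CPM) and Npy (5.27 CPM) is replicate 2.

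Over the 15 libraries, the 12 named genes whose log2 CPM was most like that of *Pyy* had a Pearson correlation with it of 0.932 to 0.971, among 15693 genes compared. The points share their library and its depth, and the correlation is a description. The 12 genes were *Gsdmc4*, *Gsdmc2*, *Gsdmc*, *Sprr2a3*, *Col6a5*, *Gsdmc3*, *Slc27a3*, *Stfa1*, *Alms1*, *Sprr2a2*, *Tnfaip6* and *Chil4*. The next gene was at 0.927. They included 4 gasdermin C genes (pore-forming proteins of epithelia), 2 genes for small proline-rich proteins of the cornified envelope, a collagen VI chain, the hyaluronan-binding protein TSG-6 (*Tnfaip6*) and a chitinase-like protein (*Chil4*). The gasdermin C genes and the *Sprr2a* genes are close copies of each other whose reads can be split between them, so their single values are uncertain.

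*Gsdmc4*, the closest to *Pyy* (r = 0.971, Spearman's rho = 0.948, n = 15), was at 0.499 ± 0.238, 2.5 ± 0.880 and 0.218 ± 0.0637 CPM in the PBS, isotype and anti–IL-4Rα groups. Its lowest isotype library (1.61 CPM) was above its highest PBS library (0.907 CPM). *Gsdmc3* had the lowest levels of the gasdermin C genes, at 0.0782 ± 0.0449, 1.87 ± 1.15 and 0.00884 ± 0.0131 CPM, and like *Pyy* it had every isotype library above every PBS library and every PBS library above every anti–IL-4Rα library. *Chil4* was at 24.2 to 308 CPM in the isotype libraries, with at most 0.0687 CPM in a PBS library and 0.0236 CPM in an anti–IL-4Rα library. *Alms1*, a gene of the centrosome and ciliary base, moved least, from 4.01 ± 0.240 to 5.27 ± 0.555 CPM and to 3.42 ± 0.217 CPM.

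All 12 genes were called higher in isotype against PBS and lower in anti–IL-4Rα against isotype by edgeR, where 9.53% and 8.13% of all genes were, but likeness to *Pyy* over the same libraries selects such genes and nothing is read from these counts. The same holds for anti–IL-4Rα against PBS, where all 12 were fitted below PBS and 3 were called lower (*Sprr2a3*, *Col6a5* and *Sprr2a2*; 1.44% of all genes were). After centering within the groups, the correlation with *Pyy* ran from −0.07 to 0.63, with *Slc27a3* (an acyl-CoA synthetase gene; 0.63), *Gsdmc4* (0.62) and *Tnfaip6* (0.53) at the top and *Sprr2a2* (−0.07) and *Sprr2a3* (−0.02) at the bottom. For the *Sprr2a* genes the likeness thus lay in the group levels and not in the order of libraries within a group. The list depends on the measure: 2 of the 12 remained with Spearman correlation and 6 on the log2(CPM + 1) scale.

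**Figure D4:**
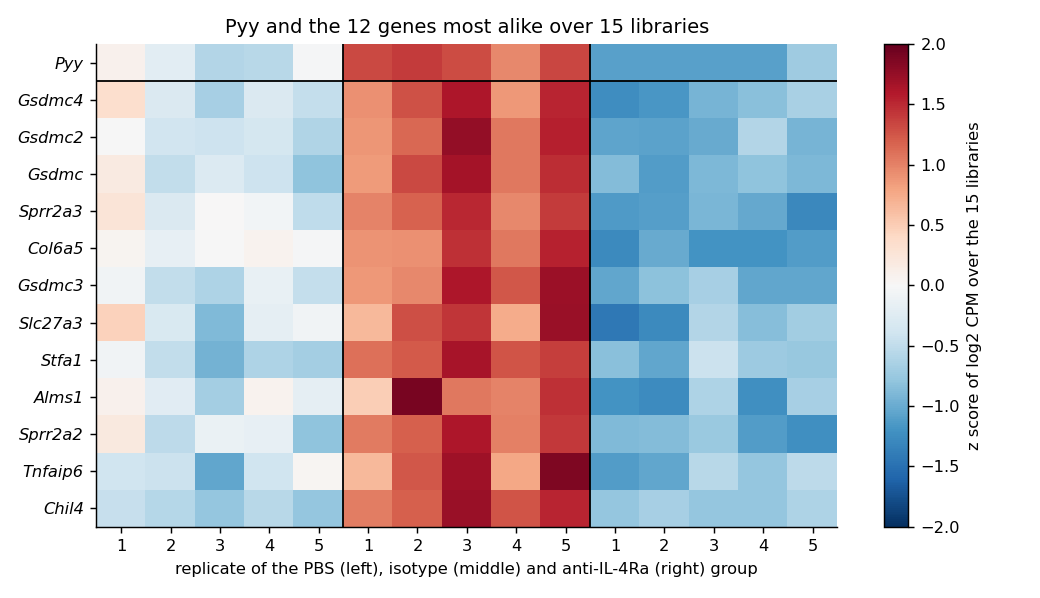
Pyy (top row) and the 12 genes most alike, as z scores of log2 CPM over the 15 libraries; columns are the 5 libraries of the PBS, isotype and anti–IL-4Rα groups. All rows are highest in the 5 isotype libraries, and isotype replicate 4, the lowest isotype library for Pyy (0.629 CPM), is also low for Gsdmc4 (1.61 CPM).

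The genes least like *Pyy* were *Wdr34*, *Fam193b*, *G6pc3* and *Paxx* (r = −0.90, −0.89, −0.89 and −0.88, n = 15). Their changes were small: *Wdr34* was at 12.3 ± 0.504 CPM with PBS, 11 ± 0.598 CPM with isotype and 13.3 ± 0.626 CPM with anti–IL-4Rα. RefSeq promoter windows were at hand for 9 of the 12 most alike genes, and the STAT6 palindrome was in 3 of the 9 (*Sprr2a3*, *Slc27a3* and *Sprr2a2*, of which the *Sprr2a* genes are close copies), against 6.95% of all windows. The palindrome with 3 bases between was in 4 (*Sprr2a3*, *Col6a5*, *Tnfaip6* and *Chil4*), against 8.30% of all windows. TATAAG was in 2 (*Gsdmc3* and *Slc27a3*), against 7.44%. The 9 genes were selected by their likeness to *Pyy* in these libraries, the matches describe letters only, and nothing is read from these shares.

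The order isotype over PBS over anti–IL-4Rα was looked for in the other genes, with *Pyy* left out since it was chosen for it. Of 762 other genes called higher in isotype against PBS and lower in anti–IL-4Rα against isotype, 8 (1.05%) were also called below PBS with anti–IL-4Rα, near the 1.44% of all genes that were, and they were 0.0421% of the genes tested. They included *Hsd11b1*, *Otud7a*, *Mrgprg*, *Sprr2a2*, *Ear2*, *Sprr2a3* and *Col6a5*, named here after their values were seen. *Mrgprg*, an orphan Mas-related G protein–coupled receptor gene, fell furthest, from 6.35 ± 0.772 CPM with PBS and 27.0 ± 11.1 CPM with isotype to 0.153 ± 0.110 CPM (log2 fold change −5.34 against PBS, SE 0.41, adjusted p = 4.85e-05 by edgeR). *Col6a5* went from 10.8 ± 1.43 and 63.4 ± 28.2 CPM to 2.10 ± 0.314 CPM (−2.36, SE 0.26, adjusted p = 0.00139).

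*Mrgprg*, *Col6a5* and *Sprr2a3* kept all 3 calls in the 10 other settings and the 15 fits that left out 1 library. With the lacrimal covariate, *Hsd11b1*, *Otud7a*, *Sprr2a2* and *Ear2* lost the call against PBS (adjusted p 0.0794 to 0.275). *Otud7a*, *Sprr2a2* and *Ear2* also lost it in the linear models, *Sprr2a2* and *Ear2* with the replicate block, and *Ear2* with no filter and with only the 2 groups. Leaving out 1 library ended the call against PBS of *Ear2* in 11 of 15 fits, of *Sprr2a2* in 8, of *Otud7a* in 7 and of *Hsd11b1* in 4, each of PBS replicates 1 and 2 and anti–IL-4Rα replicates 1 and 5 doing so for all 4 genes. *Hsd11b1* also lost its call for isotype against PBS without PBS replicate 2 or 4 or isotype replicate 3 or 5 (up to 0.0583).

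In 24 other genes, 0.126% of those tested, all libraries stood in the order of *Pyy* with no overlap between any of the groups. They included *Gsdmc3*, *Mrgprg*, *Col6a5* and the goblet cell gene *Clca1*, and also *Mki67*, *Cdk1* and *Foxm1*, which act in the cell cycle. These names were chosen after the values were seen. *Mki67* was at 73.1 ± 6.36, 106 ± 28.7 and 61.3 ± 4.89 CPM in the PBS, isotype and anti–IL-4Rα groups. *Mki67*, *Cdk1* and *Foxm1* were not called below PBS with anti–IL-4Rα (adjusted p = 0.281, 0.179 and 0.219 by edgeR). For *Foxm1* the lowest isotype library (24.70 CPM) was just above the highest PBS library (24.61 CPM). Its rise with OVA challenge was lost when any PBS library except replicate 1 was left out (adjusted p up to 0.0873 by edgeR). The same held for isotype replicates 2 (0.0548) and 3, and for anti–IL-4Rα replicates 4 and 5. Both linear models, upper quartile scaling, no filter, only the 2 groups and the replicate block also ended the *Foxm1* rise (0.0546 to 0.0843). For *Cdk1*, leaving out PBS replicate 5 (0.0512) and isotype replicate 3 (0.0515) each ended the rise.

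The neighbors of *Pyy* on chromosome 11 changed by less than 1 on the log2 scale. Of 13 genes annotated within 100 kb, 9 were protein coding and 7 of those were tested. For isotype against PBS, 1 was called higher (*Lsm12*, log2 fold change 0.14, SE 0.04, adjusted p = 0.0425) and 3 lower (*Mpp3* −0.88, *G6pc3* −0.32 and *Hdac5* −0.28), where 9.53% and 7.49% of all genes were. For anti–IL-4Rα against isotype, *G6pc3*, a glucose-6-phosphatase gene, was called higher (0.48, SE 0.08, adjusted p = 0.00376) and none lower, by edgeR (6.73% and 8.13% of all genes). For anti–IL-4Rα against PBS, 0 were called higher and 2 lower (2.28% and 1.44% of all genes). These were *Mpp3* (−0.73, adjusted p = 0.0148) and *Hdac5* (−0.19, adjusted p = 0.0456), by edgeR. The *Hdac5* call was lost with the lacrimal score as a covariate (0.172). DESeq2 size factors, no filter, only the 2 groups and the replicate block also ended it (0.0512 to 0.0884). Among single libraries, leaving out any from PBS except replicate 3 ended the *Hdac5* call (up to 0.116). So did leaving out any anti–IL-4Rα library except replicate 3, and isotype replicates 1, 3 and 4. *Mpp2*, *Cd300lg* and *Tmem101* did not pass in any comparison, and *Ppy* and *Nags* were too low to be tested. The call for *Lsm12* was lost in 6 of 10 other settings and in 9 of the 15 fits without 1 library (each PBS library, isotype replicates 2, 3 and 5, and anti–IL-4Rα replicate 5; adjusted p up to 0.0983).

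**Figure D5:**
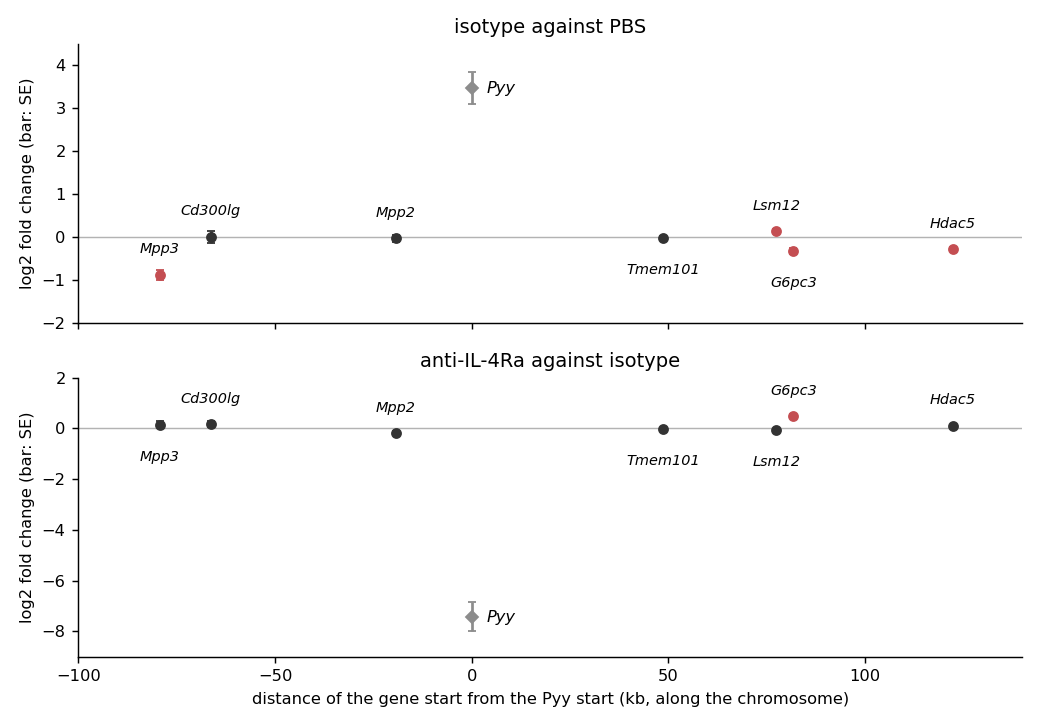
Log2 fold changes (points, with the SE as bars) of Pyy and the 7 tested protein-coding genes within 100 kb, by the distance of their start from the start of Pyy in kb, for isotype against PBS (top) and anti–IL-4Rα against isotype (bottom). Red marks an adjusted p under 0.05 and the gray diamond is Pyy, shown without a test; the neighbors lie between −0.88 and 0.48.

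The pathway that the antibody blocks was read beside *Pyy* in 2 lists. Of 6 genes for IL-4, IL-13, their receptors and STAT6, 4 rose with OVA challenge (9.53% of all genes did) and 2 fell with anti–IL-4Rα against isotype (8.13%). *Il13* rose from 0.345 ± 0.0965 to 0.855 ± 0.191 CPM (log2 fold change 1.30, SE 0.27, adjusted p = 0.00717) and was at 0.520 ± 0.191 CPM with anti–IL-4Rα, a difference from isotype that did not pass (adjusted p = 0.0811). *Il4ra* rose from 64.1 ± 13.3 to 107 ± 33.4 CPM (0.74, SE 0.22, adjusted p = 0.0342) and was lower with anti–IL-4Rα, at 51.4 ± 14.8 CPM (−1.06, SE 0.22, adjusted p = 0.0119), by edgeR. Its rise was lost without PBS replicate 1, 2, 4 or 5 or isotype replicate 2, 3 or 5 (adjusted p up to 0.0851). Of 14 genes listed as IL-4 and IL-13 responses, 7 rose and 1 fell with OVA challenge (9.53% and 7.49% of all genes), and 11 fell with anti–IL-4Rα against isotype (8.13%). *Chil4*, counted among the 7 and the 11, passed the filter only through the 5 isotype libraries. It had to differ between groups, and nothing is read from its calls. For anti–IL-4Rα against PBS, 3 of the 14 were called lower and 0 higher (1.44% and 2.28% of all genes).

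Markers of other cell types were read beside *Pyy*, against 9.53% of all genes called higher and 7.49% lower for isotype against PBS. Of 9 stress keratin and cornification genes, 6 rose with OVA challenge and 6 fell with anti–IL-4Rα, and *Krt16*, a keratin of activated keratinocytes, was at 63.5 ± 17.4, 574 ± 175 and 96.8 ± 81.7 CPM. Of the immune lists, 3 of 3 eosinophil, 3 of 3 neutrophil, 6 of 8 mast cell and basophil, 5 of 8 macrophage and dendritic cell and 3 of 6 lymphocyte genes tested were called higher with OVA challenge. With anti–IL-4Rα against isotype, 0 eosinophil, 2 neutrophil, 3 mast cell and basophil, 1 macrophage and dendritic cell and 0 lymphocyte genes were called lower (8.13% of all genes). Among these, *Mcpt8* and *Retnlg* lost the call with the lacrimal covariate (adjusted p = 0.180 and 0.120 by edgeR) and with only the 2 groups. *Mcpt8* also lost it in the linear models and with no filter. Leaving out anti–IL-4Rα replicate 1, 4 or 5 or isotype replicate 2, 3 or 5 ended both calls (up to 0.0991). Without anti–IL-4Rα replicate 2, that of *Mcpt8* was lost. Against PBS, 1 eosinophil, 2 mast cell and basophil, 1 macrophage and dendritic cell and 2 lymphocyte genes were called higher with anti–IL-4Rα (2.28% of all genes), where *Pyy* was lower. Of these calls, those of *Ccr3*, *Fcer1a*, *Clec10a* and *Cd4* were lost with the lacrimal score as a covariate (adjusted p 0.0544 to 0.159 by edgeR). Each was also lost without PBS replicate 1, 2, 3 or 4 (up to 0.102).

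Of 8 tuft cell genes tested, 2 were called higher with OVA challenge (9.53% of all genes were). Of 10 goblet cell genes, 2 were called higher with OVA challenge and 2 lower with anti–IL-4Rα against isotype (8.13% of all genes). For anti–IL-4Rα against PBS, 1 goblet cell gene was called higher and 1 lower (2.28% and 1.44% of all genes). Of 5 neuron genes, 1 was called higher with OVA challenge and lower with anti–IL-4Rα against isotype (*Tubb3*, from 2.6 ± 0.659 to 10.6 ± 7.74 CPM with OVA challenge). Isotype replicate 2 stood apart for *Tubb3* at 24 CPM, with the rest of its group at 4.76 to 9.73 CPM. The fall of *Tubb3* was lost with the lacrimal covariate and with only the 2 groups (adjusted p = 0.0787 and 0.0560 by edgeR). All 5 skeletal muscle genes were called lower with OVA challenge (7.49% of all genes were). Some of these calls were close to the threshold: that of the muscle gene *Acta1* was lost in 8 of 15 fits without 1 library (PBS replicates 2, 4 and 5, anti–IL-4Rα replicates 1 and 4, isotype replicates 1, 2 and 4; adjusted p up to 0.103), that of the neutrophil gene *Cxcr2* in 12 of 15 fits without 1 library (all but PBS replicate 3, isotype replicate 2 and anti–IL-4Rα replicate 3; up to 0.102) and that of the tuft cell gene *Sh2d6* without PBS replicate 1, 3 or 4 or isotype replicate 2 (up to 0.0734). *Actn3*, another muscle gene, lost its call without PBS replicate 2 or 5 (up to 0.0557). The part of any of these cell types in the level of *Pyy* was not tested, and their levels and that of *Pyy* differ between the same groups of libraries.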

How the data were processed

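Conjunctival mRNA of 15 libraries was sequenced by the authors from a stranded polyA kit as paired reads of 90 bases. Per the methods, reads under Q20 were removed and the rest were mapped uniquely to mouse B38 with an Ensembl R100 gene model in Omicsoft Array Studio. The deposited table holds estimated counts for each gene. The software version and whether counting used strand are not given in the sources used here. The authors normalised FPKM to the 75th quantile and fitted a linear model.

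Here the estimated counts (55487 genes) were rounded. The 19006 genes that reached 10 counts in 5 or more libraries were tested with edgeR 4.0.16 in R 4.3.3 (TMM factors, quasi-likelihood test, 1 model with 3 groups, two-sided, Benjamini-Hochberg over all genes, threshold 0.05). DESeq2 1.42.0 and limma 3.58.1 gave alternatives. CPM used TMM library sizes, and FPKM used exon lengths of GENCODE M21 (GRCm38), which matched 55141 genes. The study's methods mention outlying samples without naming them, and all 15 libraries were kept. As the sources do not tie libraries to animals, p-values measure the spread between libraries. The median library had 55243773 counts, and 3 counts were taken as the limit that a count of 0 allows, with 95% exact counting intervals. All 30 replicate pairs differed by more than sampling noise (chi-square per degree of freedom 19.5 to 1074).

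The gene and the lists (170 symbols, 1 not matched) were chosen with earlier results of these data known. Named genes were *Pyy*, all PYY system genes, up to 4 members of each other list (median of at least 1 CPM in a group, or called) by size of change, protein-coding genes within 100 kb, and the 12 most and 4 least correlated genes on log2 CPM (prior count 2). Hormone and endocrine genes near 0 were named beyond that rule. Promoters were RefSeq windows of GRCm38.p6. The test was tried on simulated data. 1 gene is not reported here.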

Additional observations from a re-analysis of the deposited data

Results flagged for a closer look

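Single libraries stood apart from the other 4 of their group, with a gap over 0.71 of the group's range (Dixon's 95% critical value for 5), in 36 of 300 sets of values over 100 genes. Chance gives about 1 in 20. For *Pyy*, isotype replicate 4 was low at 0.629 CPM, and anti–IL-4Rα replicate 5 was high at 0.0236 CPM, the value of its single count.

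Of the PYY system genes, *Npy* was high in isotype replicate 2 (5.27 CPM) and in anti–IL-4Rα replicate 3 (1.62 CPM), and *Mme* was high in isotype replicate 4 (24.3 CPM) and anti–IL-4Rα replicate 2 (47.9 CPM). *Pam* was low in anti–IL-4Rα replicate 3, at 105 CPM. Of the neighbors, *Mpp3* was high in PBS replicate 5 (3.81 CPM) and anti–IL-4Rα replicate 1 (2.19 CPM). Of the genes most like *Pyy*, *Gsdmc4* was high in PBS replicate 1 (0.907 CPM) and *Gsdmc2* in anti–IL-4Rα replicate 4 (0.618 CPM).

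All other values were also on the high side. PBS replicate 5 stood out for the lacrimal genes *Pip* (2320 CPM), *Car6* (476 CPM), *Lcn11* (249 CPM) and *Bhlha15* (126 CPM), for the secretory cell gene *Agr2* (102 CPM) and for *Fcer1a* (0.510 CPM). Isotype replicate 2 stood out for the hair keratins *Krt71* (2940 CPM), *Krt34* (342 CPM) and *Krt33b* (201 CPM) and for *Tubb3* (24 CPM). PBS replicate 2 was high for *Krt71* (467 CPM) and for the corneal keratin gene *Krt12* (13 CPM), which was also high in anti–IL-4Rα replicate 1 (47.2 CPM). Anti–IL-4Rα replicate 3 was high for the lymphocyte and plasma cell genes *Jchain* (185 CPM), *Il2rg* (21.7 CPM) and *Cd79a* (3.58 CPM).

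Anti–IL-4Rα replicate 4 was high for *Krt16* (240 CPM), *S100a9* (52.3 CPM) and *Chil3* (0.173 CPM), and PBS replicate 1 for *Chil3* (0.0687 CPM). Isotype replicate 5 was high for *Il4ra* (164 CPM) and the tuft cell gene *Gfi1b* (0.722 CPM). *Dgat2l6*, a meibomian gland gene, was high in isotype replicate 4 (51.0 CPM) and anti–IL-4Rα replicate 2 (115 CPM), and *Lce3d* in isotype replicate 3 (13.2 CPM). The causes were not tested.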

How the results depend on the processing

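The direction of *Pyy* was the same in all 3 comparisons under each alternative that gave a value. Outside the linear models its log2 fold change was 3.45 to 3.55, −7.57 to −7.29 and −4.06 to −3.76 for isotype against PBS, anti–IL-4Rα against isotype and anti–IL-4Rα against PBS. On the log2(CPM + 1) scale it was 0.87, −0.99 and −0.11, and on the log2(FPKM + 1) scale 1.18, −1.35 and −0.17, since adding 1 compresses low values. With only the 2 groups compared, *Pyy* was not tested for anti–IL-4Rα against PBS. Leaving out 1 library gave 3.28 to 3.79, −8.92 (without anti–IL-4Rα replicate 5) to −7.12 and −5.45 (the same library) to −3.61.

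Of the PYY system genes, 2 called for anti–IL-4Rα against isotype became 0 with no filter, 0 with only the 2 groups, 0 with the lacrimal covariate and 1 with the replicate block, and 0 to 3 with a library left out. For anti–IL-4Rα against PBS, DESeq2 called 1, and leaving out a library gave 0 to 2 (2 without anti–IL-4Rα replicate 3). Context lists for anti–IL-4Rα against isotype went from 34 calls to 22 with the covariate. Against PBS they went from 12 to 27 (DESeq2), 7 and 6 (linear models on CPM and FPKM) and 5 (covariate), and to 4 (without PBS replicate 1) to 15 with a library left out. Over all genes, 3235 calls for isotype against PBS became 2115 with the block and 1863 (without isotype replicate 3) to 3936 (without isotype replicate 1). The 2826 for anti–IL-4Rα against isotype became 1749 (no filter), 675 (2 groups), 1859 (block), 583 (covariate) and 882 (without isotype replicate 3) to 4206 (without anti–IL-4Rα replicate 3). The 707 against PBS became 1966 (DESeq2), 327 (no filter), 312 (block), 88 (covariate) and 82 (without PBS replicate 1) to 2029 (without anti–IL-4Rα replicate 3). The causes were not tested. Upper quartile scaling moved the split for isotype against PBS from 1812 higher and 1423 lower to 1479 and 1844.

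Replicate numbers are only numbers here: 4 of 15 same-numbered pairs had correlated deviations over 0.1 (−0.385 to 0.454), and with the replicate block *Pyy* was at 3.55, −7.45 and −3.90. Of the 12 genes most like *Pyy*, 2 were shared with the Spearman list and 6 with the log2(CPM + 1) list. Counts of 0 to 11 set the precision of *Pyy* outside the isotype group.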
